A study of Mus musculus with 13 samples.

Results

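In mouse pre-iPSCs, fibroblast-derived cells that stalled on the way to pluripotency, 48 of 20325 genes were low before treatment in Kdm3b knockout (KO) cells, high in KO cells after 10 days of treatment, and low in wild-type (WT) cells after the same 10 days. They were chosen on RNA levels in CPM, each gene's expected count divided by its library's total and times 1000000. The lower of the 2 KO day 10 libraries had to reach 5 CPM and, with 1 CPM added, had to be at least 3 times the highest of the 4 KO day 0 and WT day 10 libraries, also with 1 CPM added. Past these limits lay 51 genes, and the choice left out Foxd1, Sp8 and Wnt8a by name. The levels in those 6 libraries are therefore a description, with no test. Tests of these genes compared only libraries that the choice did not use: KO against WT at day 2, and WT at day 2 against WT at day 0. The spread in these tests was estimated in 1 fit over all 12 pre-iPSC libraries. It therefore also came from the 6 libraries that the choice used, and the calls are not fully independent of them.

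RNA was sequenced from KO and WT pre-iPSCs at day 0, 2 and 10 of treatment with ascorbic acid at 50 µg/mL, the GSK3 inhibitor CHIR-99021 and the MEK inhibitor PD-0325901, with 2 libraries (A and B) in each of the 6 groups, and from 1 culture of V6.5 mouse embryonic stem cells (ESCs) without a replicate. KO cells carry the labelled Kdm3b KO genotype and WT cells the wildtype one, and both were derived from mouse embryonic fibroblasts and grown with 15% serum and leukemia inhibitory factor. Cultures were split on day 4. The day 0 libraries are titled DMSO although their treatment label names the compounds, and were read as the untreated start; the treatment of the ESC culture is uncertain for a like reason. How the knockout was made, whether it is 1 clone, and whether A and B are separate cultures is not given in the sources used here, so p-values measure the spread between these libraries, which may be technical.

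KDM3B removes methyl groups from lysine 9 of histone H3, a mark of silenced chromatin, and ascorbate is a cofactor for enzymes of its family. Inhibition of GSK3 raises Wnt signalling, and inhibition of MEK lowers ERK signalling. Pre-iPSCs divide and hold a partly reprogrammed state, and this treatment is used to move them on to the naive pluripotent state of ESCs. The 48 genes are no known pathway: by textbook role they hold secreted proteins, surface proteins, signalling proteins, transcription factors, proteins of neurons, and proteins of the cytoskeleton and metabolism.

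Library totals were 14891294 to 26430050 expected counts. Kdm3b, the targeted gene, was at 17.7 to 65.5 CPM in the 6 KO libraries, against 146 to 261 CPM in the 6 WT libraries. Across genes the 2 libraries of a group correlated at 0.952 to 0.994 (Pearson, log2 CPM), most closely at day 10. In bulk RNA, a change in the number of cells of a type and a change in the RNA per cell cannot be told apart.

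The sum over the 48 genes was highest at day 10 in KO cells and at day 2 in WT cells. In KO cells it was 289 and 312 CPM at day 0, 1524 and 1788 CPM at day 2, and 2509 and 2386 CPM at day 10. In WT cells it was 656 and 610.1 CPM at day 0, 1183 and 1165 CPM at day 2, and 446 and 410.2 CPM at day 10. At day 2, then, both genotypes stood above their own day 0, and at day 10 KO sums were above and WT sums below those of day 2. The median gene had a mean of 1.59 CPM at day 0, 13.99 CPM at day 2 and 21.1 CPM at day 10 in KO cells, against 2.10, 8.99 and 2.85 CPM at the same days in WT cells. A gain restricted to KO cells therefore describes day 10, not the whole course.

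**Figure D1:**
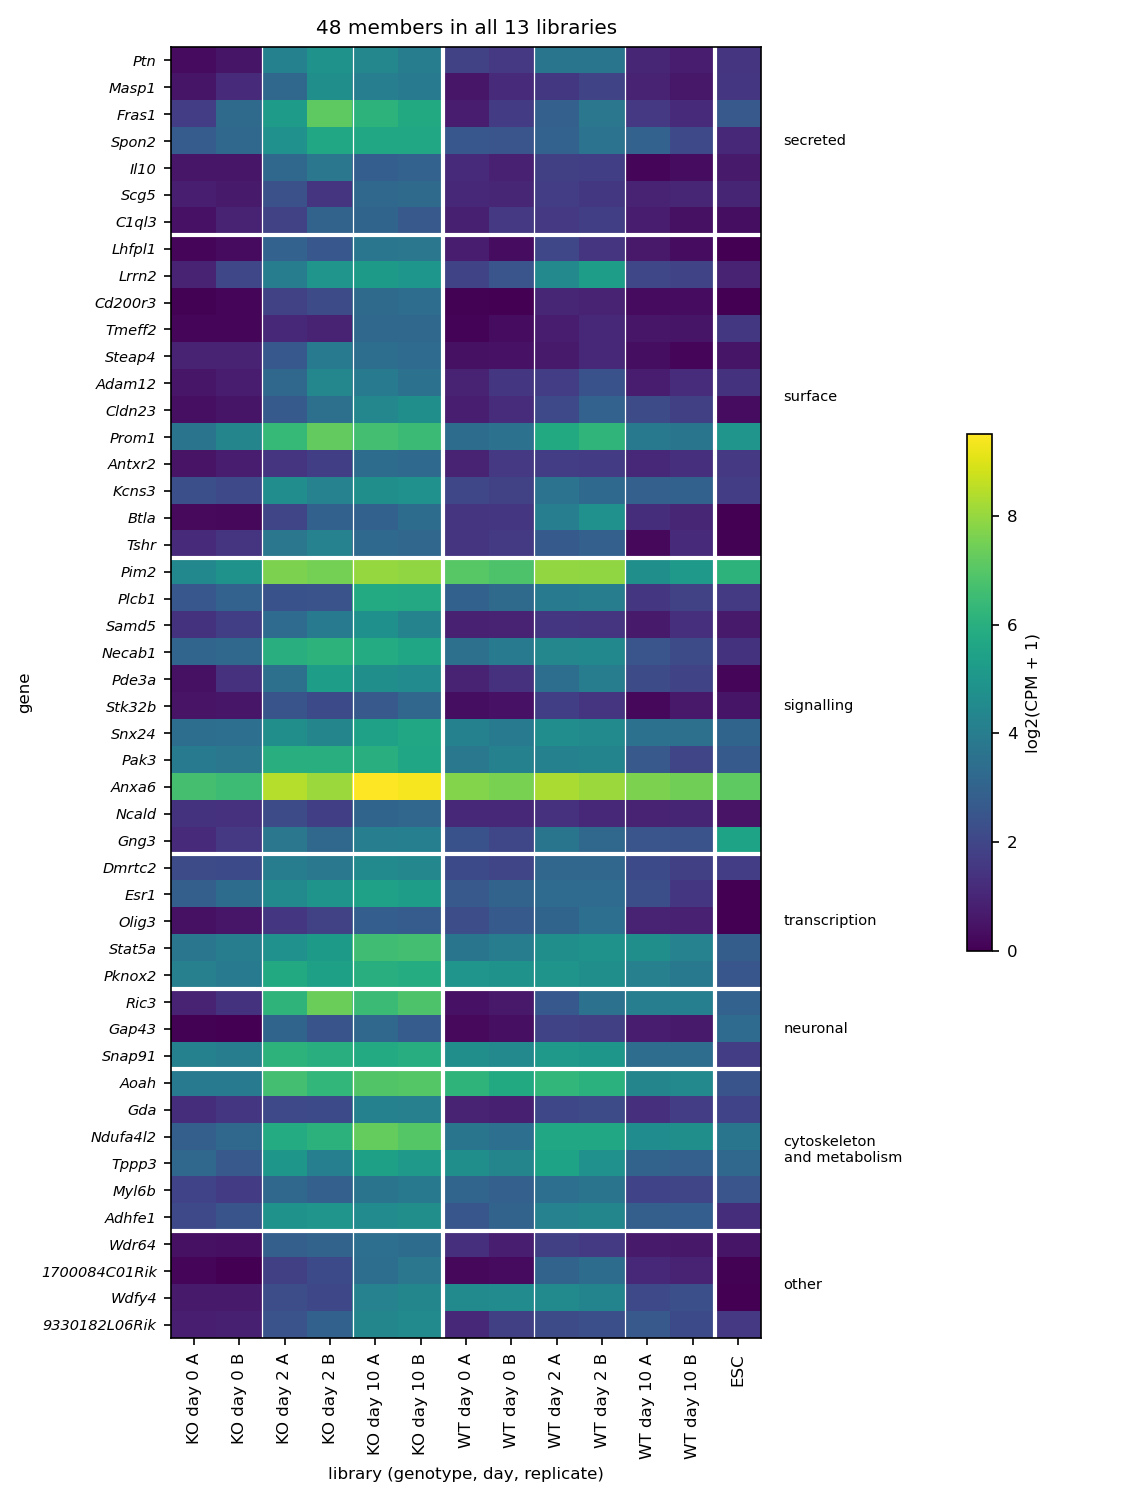
Heat map of log2(CPM + 1) for the 48 genes (rows, grouped by role) in all 13 libraries (columns, KO left of WT and the ESC library last). KO day 2 and day 10 columns are bright, WT day 2 columns are intermediate, and WT day 10 columns return towards the day 0 shades. The sums were 2509 and 2386 CPM in KO day 10 libraries and 446 and 410.2 CPM in WT day 10 libraries.

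The ratio that chose the genes ran from 3.01 to 8.54 with a median of 4.49. Lhfpl1, which encodes a tetraspan membrane protein, had the highest ratio, followed by Ptn, the secreted growth factor pleiotrophin, at 7.73. Just inside the limit of 3 lay Gng3 at 3.01, Snap91 at 3.08 and Tshr at 3.18; outside it lay Tll1 at 2.96 and Slc40a1 at 2.94. Day 10 levels in KO cells spanned 5.97 to 694 CPM with a median of 21.1 CPM, and libraries A and B were within 1.45-fold of each other for every one of the 48. In the deposited TPM, which are scaled by transcript length and so compare levels between genes, the highest KO day 10 means were 490.4 TPM for Anxa6 (annexin A6, a calcium-dependent membrane-binding protein), 282 TPM for Ndufa4l2 (a mitochondrial protein induced by hypoxia) and 231 TPM for Pim2 (a serine/threonine kinase induced by STAT signalling). All 48 genes were among the 14324 tested, and all 48 reached 1 CPM in at least 2 of the 6 pre-iPSC libraries that the choice did not use.

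Promoter windows of RefSeq genes (build GRCm38.p6, 250 bases before to 50 after the start) were at hand for 28 of the 48 genes, in 35 windows. Their median GC content was 57.7%, against 52.7% over all 32851 windows, and a ratio of observed to expected CpG of at least 0.6 was found in 34.3% of them, against 35.8%. The STAT motif TTCNNNGAA, searched on both strands like the others, was in 11.4% of the windows (those of Scg5, Plcb1, Steap4 and Esr1), against 8.30% of all windows. For TCF/LEF, the DNA-binding partners of Wnt signalling, CTTTGAT was in 2.86% (Pim2), against 3.73%. AP-1 sites (TGANTCA) were in 8.57% against 7.81%, TATA boxes (TATAAA) in 8.57% against 13.6%, E-boxes (CACGTG) in 8.57% against 7.15%, and GC boxes (GGGCGG) in 48.6% against 35.7%. No matches of different motifs overlapped in these windows, and the shares were not tested. The windows of Pim2 (chrX:7878056-7878355, + strand), Steap4 (chr5:7960222-7960521, + strand) and Plcb1 (chr2:134785914-134786213, + strand) are shown because these genes hold a motif of Wnt-driven or cytokine-driven factors and followed 3 different courses; capitals mark STAT, TCF/LEF or TATA box matches on either strand.
Pim2: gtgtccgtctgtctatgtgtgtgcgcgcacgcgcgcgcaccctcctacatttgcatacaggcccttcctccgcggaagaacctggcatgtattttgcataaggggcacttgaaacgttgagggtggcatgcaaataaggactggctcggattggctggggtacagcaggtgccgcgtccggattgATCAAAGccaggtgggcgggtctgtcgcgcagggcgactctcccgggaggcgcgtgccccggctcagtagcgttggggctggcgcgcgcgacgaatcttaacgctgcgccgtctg
Steap4: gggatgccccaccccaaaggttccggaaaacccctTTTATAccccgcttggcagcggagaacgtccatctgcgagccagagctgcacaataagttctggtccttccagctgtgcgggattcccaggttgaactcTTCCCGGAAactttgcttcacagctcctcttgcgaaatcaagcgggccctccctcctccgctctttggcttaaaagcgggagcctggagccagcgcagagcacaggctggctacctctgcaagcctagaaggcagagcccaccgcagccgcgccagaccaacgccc
Plcb1: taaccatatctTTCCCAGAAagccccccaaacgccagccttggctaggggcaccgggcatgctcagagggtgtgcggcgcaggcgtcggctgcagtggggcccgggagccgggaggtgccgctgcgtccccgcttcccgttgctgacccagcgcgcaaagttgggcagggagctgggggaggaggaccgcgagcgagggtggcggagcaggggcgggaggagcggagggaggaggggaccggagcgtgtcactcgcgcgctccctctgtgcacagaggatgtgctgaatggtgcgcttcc
Pim2 holds 1 TCF/LEF match, and Plcb1 1 STAT match near the upstream end. Steap4 holds 1 STAT match, and 1 match of the TATA box letters on the opposite strand, also near the upstream end of its window. These matches are letters in a window and do not show that a factor binds there.

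Whether the genes already differed by genotype at day 2 was tested with edgeR's quasi-likelihood test over all 14324 genes; a gene was called at an adjusted p (FDR, after Benjamini and Hochberg) under 0.05. KO day 2 was higher than WT day 2 for 18 of the 48 genes (37.5%), against 4.29% of all genes tested, and lower for 5 (10.4%), against 6.16%; the share that was lower is near that of all genes. The median log2 fold change was 0.91 over the 48 genes and 0.02 over all genes. Both KO day 2 libraries lay above both WT day 2 libraries for 29 of the 48, against 14.9% of all genes. The higher genes were Ric3, Steap4, Fras1, Masp1, Samd5, Spon2, Adam12, Il10, Pak3, Cd200r3, Necab1, Wdr64, Esr1, Ncald, Kcns3, Snap91, Dmrtc2 and Pknox2, and the lower ones Wdfy4, Btla, Olig3, Plcb1 and 1700084C01Rik (Ccdc190 in RefSeq). The remaining 25 genes passed in neither direction, which does not show that they were alike. All 18 higher and all 5 lower genes had the same sign in the A libraries alone and in the B libraries alone. The calls used these same libraries, so this agreement is a description and no separate check. Over the 48, KO was above WT for 38 genes within A (median difference 0.62 in log2(CPM + 1)) and for 33 within B (median 0.65).

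The number of calls rests on few libraries. It was 7 higher genes without either WT day 2 library and 10 without KO day 2 library B, and the 5 lower genes became 3 without WT day 2 library B. Called whichever of the 12 pre-iPSC libraries was left out were 6 higher genes (Necab1, Ric3, Steap4, Pak3, Samd5 and Il10) and 3 lower ones (Wdfy4, Plcb1 and Olig3), while Ncald was called in 1 of those 12 fits, 1700084C01Rik in 2, Pknox2 in 3, Dmrtc2 in 4 and Fras1 in 5. In a fit with only the 4 libraries compared, none of the 48 was called, and 79 of all genes were.

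**Figure D2:**
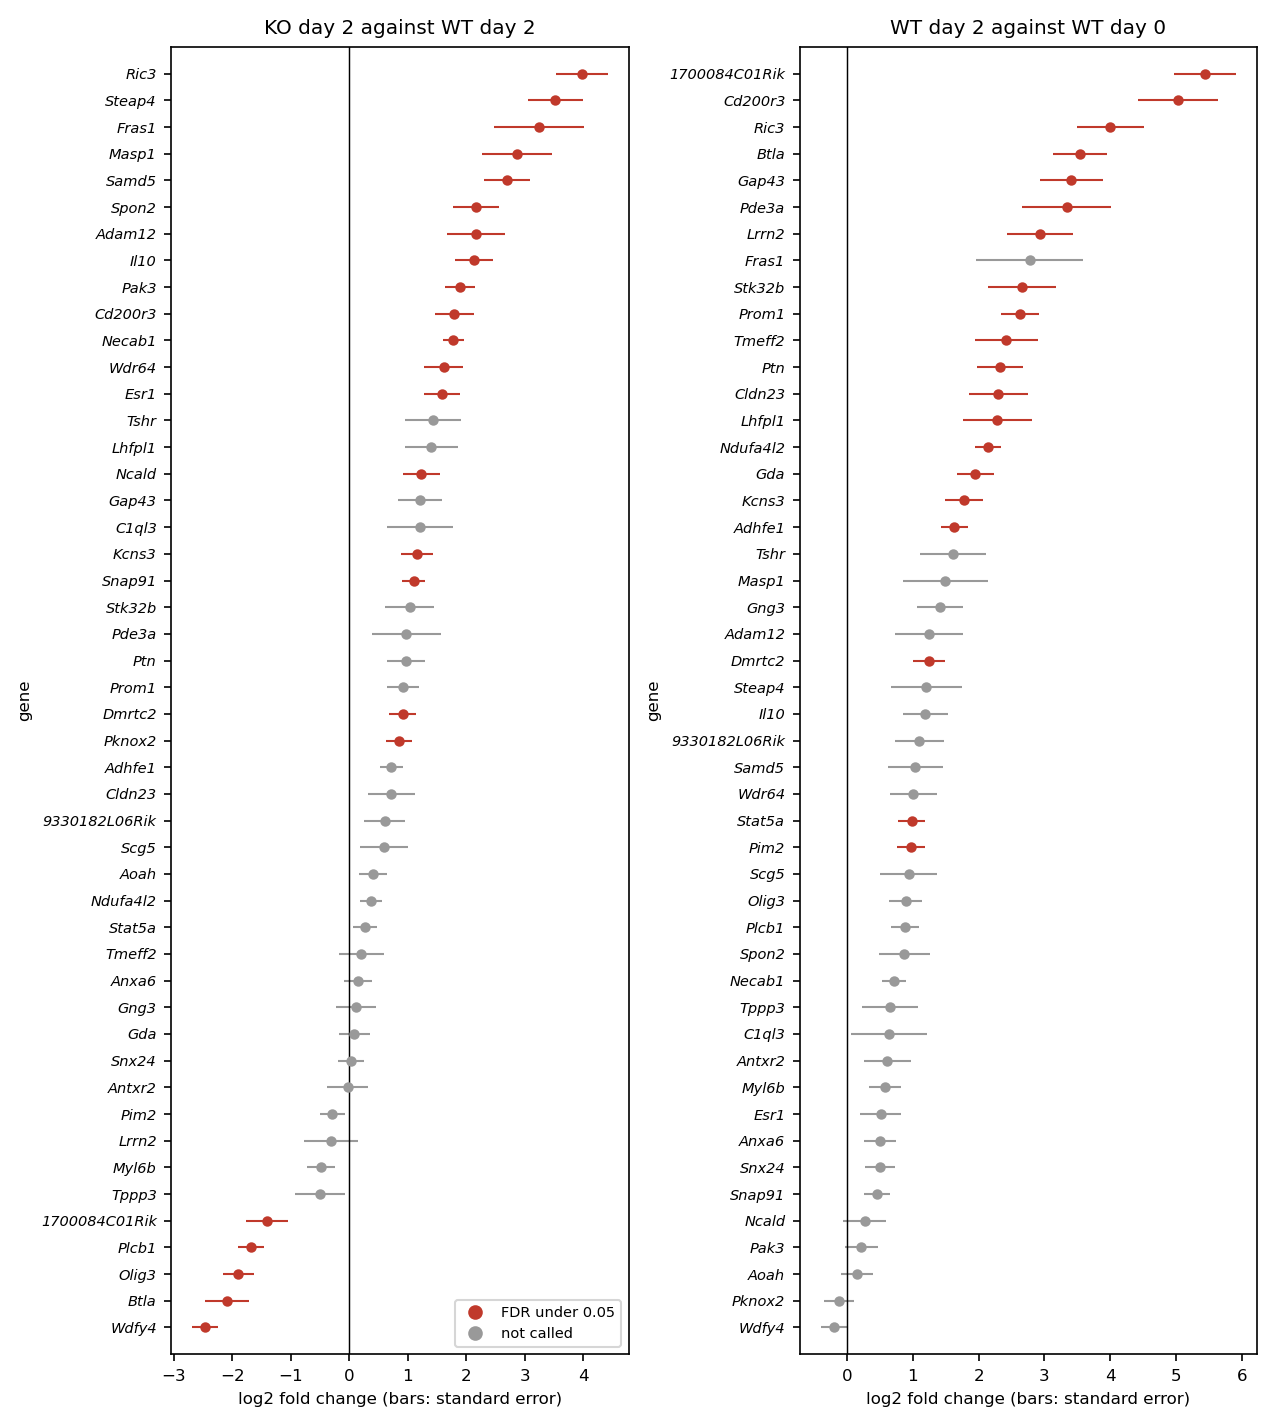
Log2 fold changes of the 48 genes (points; bars are standard errors from edgeR, 2 libraries a group) for KO day 2 against WT day 2 (left) and WT day 2 against WT day 0 (right), each sorted by size, with red for an FDR under 0.05. On the left 18 red points lie above 0 and 5 below, and on the right all 20 red points lie above 0; the Cd200r3 value on the right rests on 1 and 0 reads at WT day 0.

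Whether WT cells also gained these genes early was tested between day 2 and day 0. WT day 2 was higher than WT day 0 for 20 of the 48 genes (41.7%), against 3.32% of all genes tested, with a median log2 fold change of 1.20 over the 48 and of -0.002 over all genes. None of the 48 was lower, against 1.98% of all genes, which is near that share, so nothing is read from it. None was lower at an FDR under 0.05 in DESeq2 or at an unadjusted p under 0.05. These counts have no share over all genes beside them. Fold changes were above 0 for 46 genes, all but Wdfy4 and Pknox2, within A as within B, with medians of 0.95 and 0.88 in log2(CPM + 1). Both WT day 2 libraries exceeded both WT day 0 libraries for 44 genes, against 21.3% of all genes. The 20 were 1700084C01Rik, Cd200r3, Ric3, Btla, Gap43, Pde3a, Lrrn2, Stk32b, Prom1, Tmeff2, Ptn, Cldn23, Lhfpl1, Ndufa4l2, Gda, Kcns3, Adhfe1, Dmrtc2, Stat5a and Pim2. The count became 8 and 9 without WT day 0 library A or B, and 12 and 11 without WT day 2 library A or B; 6 genes (1700084C01Rik, Ndufa4l2, Prom1, Btla, Cd200r3 and Adhfe1) were called whichever of the 12 libraries was left out, while Lhfpl1 was called in 2 of those 12 fits, Pim2 and Pde3a in 4 each and Tmeff2 in 5.

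The 2 comparisons share the WT day 2 libraries. Higher in both were Cd200r3, Dmrtc2, Kcns3 and Ric3. Btla and 1700084C01Rik rose in WT cells by day 2 and were lower in KO than in WT cells at day 2. Another 14 genes rose in WT cells by day 2 and were not called between the genotypes then, and 11 were called in neither comparison. Both WT day 2 libraries were above both WT day 10 libraries for 43 of the 48 genes, against 31.8% of all genes, but the choice of the genes used WT day 10 and nothing is read from that count.

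**Figure D3:**
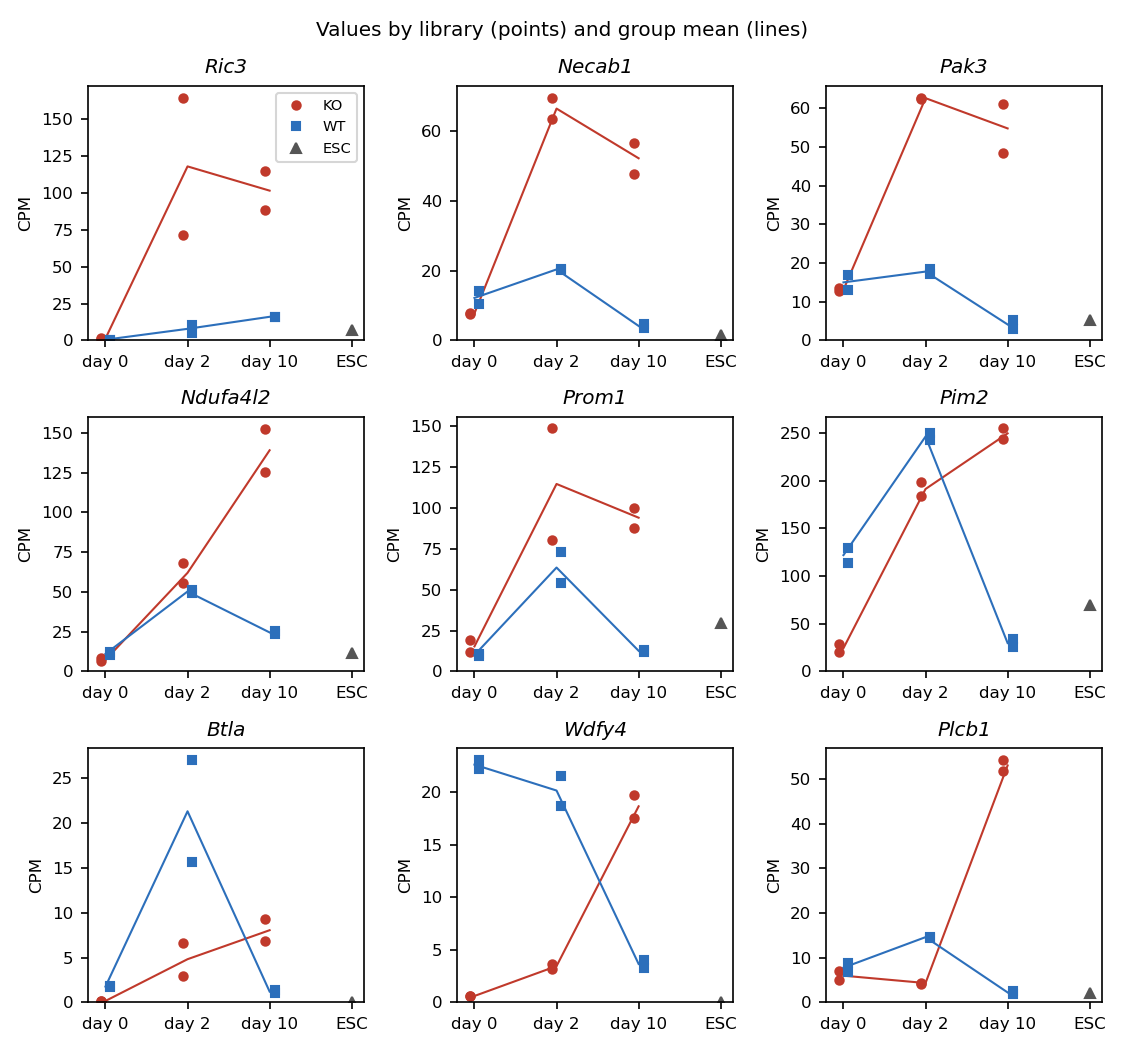
CPM of 9 of the genes by day (points are single libraries, lines join group means; KO red circles, WT blue squares, ESC grey triangle). Ric3, Necab1 and Pak3 are high in KO cells at day 2; Ndufa4l2, Prom1 and Pim2 stand high in both genotypes at day 2 and low in WT cells at day 10; Btla, Wdfy4 and Plcb1 are lower in KO than in WT cells at day 2 and high in KO cells at day 10.

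Of the 7 genes for secreted proteins, 4 were higher in KO than in WT cells at day 2 (Fras1, Masp1, Spon2 and Il10) and none was lower, and 1 (Ptn) rose in WT cells by day 2. Fras1, a basement membrane matrix protein, stood in KO cells at 2.29 and 8.79 CPM at day 0, 36.1 and 139.5 CPM at day 2, and 68.7 and 54.02 CPM at day 10. Fras1 in WT cells was at 0.681 and 2.13 CPM at day 0, 6.53 and 12.6 CPM at day 2, and 1.98 and 1.16 CPM at day 10. The groups did not overlap at day 2 (log2 fold change 3.25, SE 0.77, FDR 0.0286), but KO library B was 3.87 times library A. Il10, an anti-inflammatory cytokine, was measured in KO cells at 0.494 and 0.475 CPM at day 0, 7.91 and 12.7 CPM at day 2, and 6.06 and 6.84 CPM at day 10. Il10 in WT cells was at 1.21 and 0.831 CPM at day 0, 2.47 and 2.41 CPM at day 2, and 0.110 and 0.259 CPM at day 10. Its day 2 values in KO cells were above all others in the series (log2 fold change 2.13, SE 0.33, FDR 0.00411), so that Il10 was past its day 10 level by day 2.

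Spon2, a secreted matrix protein, was at 27.01 and 51.3 CPM in KO cells at day 2 and 6.92 and 11.2 CPM in WT cells at day 2 (log2 fold change 2.17, SE 0.39, FDR 0.00852). Masp1, a serine protease of the lectin pathway of complement, was at 7.91 and 25.7 CPM in KO and 1.89 and 2.85 CPM in WT cells at day 2 (log2 fold change 2.87, SE 0.60, FDR 0.0169), and in KO cells at 15.6 and 13.9 CPM at day 10. For both genes the KO libraries were the higher ones and A and B differed within KO. Ptn had in KO cells 0.225 and 0.448 CPM at day 0, 16.8 and 28.3 CPM at day 2, and 20.1 and 14.8 CPM at day 10. Ptn in WT cells was at 2.64 and 1.97 CPM at day 0, 12.001 and 11.97 CPM at day 2, and 1.05 and 0.647 CPM at day 10. The WT rise by day 2 passed the test (log2 fold change 2.32, SE 0.35, FDR 0.00706) and the difference between genotypes at day 2 did not (log2 fold change 0.97, SE 0.32, FDR 0.106). C1ql3, a C1q-like protein of synapses, and Scg5, a secretory granule chaperone of neuroendocrine cells, were called in neither comparison and were at 5.31 to 8.65 CPM in the KO day 10 libraries.

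Among the 12 genes for surface proteins, 4 were higher in KO cells at day 2 (Steap4, Adam12, Cd200r3 and Kcns3), 1 was lower (Btla), and 8 rose in WT cells by day 2. Steap4, a membrane metalloreductase, was at 0.897 and 0.943 CPM at day 0, 5.13 and 13.8 CPM at day 2, and 9.75 and 9.02 CPM at day 10 in KO cells. In WT cells it stayed near 1 CPM or below, with 0.341 and 0.363 CPM at day 0, 0.629 and 1.06 CPM at day 2, and 0.276 and 0.129 CPM at day 10. KO and WT did not overlap at any of the 3 days, and the day 2 difference was among the largest of the 48 genes (log2 fold change 3.52, SE 0.47, FDR 0.00207). Prom1, known as CD133, a membrane protein of cell protrusions and stem cells, had in KO cells 11.7 and 18.9 CPM at day 0, 80.6 and 149 CPM at day 2, and 100.03 and 87.9 CPM at day 10. Prom1 in WT cells was at 9.23 and 10.7 CPM at day 0, 54.2 and 72.8 CPM at day 2, and 13.3 and 11.9 CPM at day 10. It rose in WT cells by day 2 (log2 fold change 2.63, SE 0.29, FDR 0.00209), and KO libraries were above the WT ones at day 2 without passing the test (log2 fold change 0.91, SE 0.27, FDR 0.0720). At day 10 the WT libraries were near those of WT day 0. That the KO day 10 libraries were well above those of KO day 0 was required by the choice.

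Btla, an inhibitory receptor of lymphocytes, was lower in KO than in WT cells at day 2. KO cells had 0.179 and 0.149 CPM at day 0, 2.97 and 6.65 CPM at day 2, and 6.81 and 9.27 CPM at day 10 for Btla. Btla in WT cells was at 1.70 and 1.82 CPM at day 0, 15.6 and 26.97 CPM at day 2, and 1.38 and 1.03 CPM at day 10. Its WT day 2 values were the highest of the series, above those of KO day 10 cells, and the KO day 2 libraries were lower (log2 fold change -2.09, SE 0.38, FDR 0.00881). Cd200r3, of the CD200 receptor family of myeloid cells and 4 genes away from Btla on chromosome 16, was at 2.69 and 3.63 CPM in KO cells at day 2 and 1.02 and 0.869 CPM in WT cells at day 2 (log2 fold change 1.79, SE 0.34, FDR 0.0101). At day 0 it had at most 2 reads in any library, and its WT day 2 level was higher than that (FDR 0.00254). The neighbours Btla and Cd200r3 thus differed between genotypes in opposite directions at day 2, while at day 10 both were at 6.81 to 9.39 CPM in KO cells.

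Kcns3, a modifier subunit of voltage-gated potassium channels, was at 23.9 and 17.6 CPM in KO and 11.2 and 8.44 CPM in WT cells at day 2 (log2 fold change 1.16, SE 0.27, FDR 0.0289). Adam12, a membrane metalloprotease, was at 8.29 and 19.9 CPM in KO and 2.27 and 4.29 CPM in WT cells at day 2 (log2 fold change 2.16, SE 0.50, FDR 0.0253). Lrrn2, a leucine-rich repeat membrane protein, was at 15.2 and 30.3 CPM in KO and 21.1 and 38.02 CPM in WT cells at day 2, groups that overlapped, and its WT rise since day 0 passed the test (log2 fold change 2.94, SE 0.50, FDR 0.0130). Cldn23, a claudin of tight junctions, Tmeff2, a membrane protein with EGF-like and follistatin-like domains, and Lhfpl1 rose in WT cells by day 2 as well, by 2.30, 2.42 and 2.29 on the log2 scale. Reads were few: Tmeff2 had 2 and 5 at WT day 0 and 14 and 23 at WT day 2. Lhfpl1 had 17 and 5 reads at WT day 0 and 63 and 35 at WT day 2. The receptor genes Tshr (thyrotropin) and Antxr2 (which binds anthrax toxin and matrix) passed neither test (Tshr passed both with a replicate block); Tshr was at 12.6 and 17.7 CPM in KO and 5.37 and 6.47 CPM in WT cells at day 2, and Antxr2 reached 9.12 and 8.48 CPM in KO cells at day 10.

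Signalling genes made up 11 of the 48, of which 4 were higher in KO cells at day 2 (Pak3, Necab1, Samd5 and Ncald), 1 was lower (Plcb1), and 3 rose in WT cells by day 2 (Pim2, Pde3a and Stk32b). Necab1, a neuronal calcium-binding protein, was in KO cells at 7.57 and 7.94 CPM at day 0, 63.3 and 69.5 CPM at day 2, and 56.7 and 47.7 CPM at day 10. Necab1 in WT cells was at 10.3 and 14.02 CPM at day 0, 20.2 and 20.4 CPM at day 2, and 4.65 and 3.65 CPM at day 10. Its standard error was the smallest of the 48 (log2 fold change 1.78, SE 0.18, FDR 0.000644), and its KO day 2 libraries were above its KO day 10 ones. Pak3, a kinase activated by Rac and Cdc42, had 13.5 and 12.7 CPM at day 0, 62.8 and 62.5 CPM at day 2, and 61.1 and 48.6 CPM at day 10 in KO cells. Pak3 in WT cells was at 13.1 and 16.98 CPM at day 0, 17.1 and 18.5 CPM at day 2, and 5.35 and 2.91 CPM at day 10. The genotypes overlapped at day 0 and stood apart at day 2 (log2 fold change 1.89, SE 0.26, FDR 0.00248).

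Pim2 was in KO cells at 20.5 and 28.2 CPM at day 0, 199 and 184 CPM at day 2, and 255 and 244 CPM at day 10. Pim2 in WT cells was at 129.8 and 114 CPM at day 0, 250.2 and 242 CPM at day 2, and 25.8 and 33.6 CPM at day 10. WT cells had more Pim2 than KO cells at day 0, reached the KO day 10 level at day 2 (log2 fold change 0.97, SE 0.21, FDR 0.0333 for WT day 2 against day 0), and were at a small part of it at day 10. The day 2 difference between genotypes did not pass the test (log2 fold change -0.29, SE 0.21, FDR 0.529). Plcb1, a phospholipase C that acts downstream of G proteins, was in KO cells at 5.03 and 6.93 CPM at day 0, 4.22 and 4.44 CPM at day 2, and 54.3 and 51.7 CPM at day 10. Plcb1 in WT cells was at 6.82 and 8.72 CPM at day 0, 14.5 and 14.7 CPM at day 2, and 1.82 and 2.64 CPM at day 10. It was the one gene of the 48 whose KO day 2 libraries were not above the KO day 0 ones: its KO gain lay between day 2 and day 10, and at day 2 it was lower in KO than in WT cells (log2 fold change -1.68, SE 0.22, FDR 0.00204).

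Samd5, a SAM domain protein, was at 8.87 and 13.8 CPM in KO and 1.84 and 1.79 CPM in WT cells at day 2 (log2 fold change 2.70, SE 0.40, FDR 0.00332). At day 0 Samd5 was at 1.62 and 2.43 CPM in KO and 0.832 and 0.883 CPM in WT cells. Ncald, the calcium sensor neurocalcin delta, was at 3.66 and 2.35 CPM in KO and 1.55 and 1.16 CPM in WT cells at day 2 (log2 fold change 1.23, SE 0.32, FDR 0.0411). Pde3a, a cyclic nucleotide phosphodiesterase, was at 10.3 and 37.9 CPM in KO and 9.92 and 15.4 CPM in WT cells at day 2, which overlap, and rose in WT cells since day 0 (log2 fold change 3.34, SE 0.68, FDR 0.0255). Stk32b, a serine/threonine kinase, was at 4.51 and 3.36 CPM in KO and 2.37 and 1.69 CPM in WT cells at day 2, and rose in WT cells since day 0 (log2 fold change 2.66, SE 0.51, FDR 0.0206). Anxa6, with the highest level of all 48 per length, had in KO cells 102 and 90.2 CPM at day 0, 349 and 266 CPM at day 2, and 722 and 665 CPM at day 10. Anxa6 in WT cells was at 211 and 189.9 CPM at day 0, 316 and 267 CPM at day 2, and 197 and 174 CPM at day 10. The genotypes overlapped at day 2 (log2 fold change 0.15, SE 0.24, FDR 0.862), and neither it nor the sorting nexin gene Snx24 passed a test. The G protein subunit gene Gng3 was at 12.7 and 8.04 CPM in KO and 11.9 and 8.34 CPM in WT cells at day 2, which overlap.

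Of 5 genes with roles in transcription, Esr1, Pknox2 and Dmrtc2 were higher in KO cells at day 2 and Olig3 was lower, and Stat5a and Dmrtc2 rose in WT cells by day 2. Esr1, the estrogen receptor alpha, was in KO cells at 6.37 and 9.18 CPM at day 0, 21.5 and 29.5 CPM at day 2, and 41.99 and 38.6 CPM at day 10. Esr1 in WT cells was at 5.22 and 7.06 CPM at day 0, 8.90 and 8.88 CPM at day 2, and 3.86 and 1.81 CPM at day 10. Its day 0 ranges overlapped between genotypes and its day 2 ranges did not (log2 fold change 1.58, SE 0.31, FDR 0.0128). Stat5a, a transcription factor of cytokine signalling, had 12.2 and 14.8 CPM at day 0, 26.7 and 35.1 CPM at day 2, and 95.8 and 99.2 CPM at day 10 in KO cells. Stat5a in WT cells was at 11.8 and 14.7 CPM at day 0, 25.7 and 27.7 CPM at day 2, and 25.9 and 17.3 CPM at day 10. The rise to day 2 passed the test in WT (log2 fold change 0.98, SE 0.21, FDR 0.0288), the day 2 levels overlapped between genotypes, and the KO day 10 libraries were far above both.

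Pknox2, a TALE homeobox factor, was at 53.6 and 40.7 CPM in KO and 29.4 and 25.6 CPM in WT cells at day 2 (log2 fold change 0.85, SE 0.22, FDR 0.0437), and in WT it was at 30.004 and 28.6 CPM at day 0. Dmrtc2, of the DM domain family, was at 14.8 and 12.96 CPM in KO and 7.89 and 7.67 CPM in WT cells at day 2 (log2 fold change 0.91, SE 0.23, FDR 0.0381). Olig3, a bHLH factor of the neural tube, was at 0.359 and 0.496 CPM in KO and 3.71 and 5.45 CPM in WT cells at day 0. Its KO libraries were therefore below its WT libraries before treatment as well. At day 2 it was at 1.82 and 2.62 CPM in KO and 7.36 and 9.99 CPM in WT cells (log2 fold change -1.90, SE 0.27, FDR 0.00272). In KO cells at day 10 it was at 6.12 and 5.81 CPM. Its WT day 2 values were thus above its KO day 10 values.

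The 3 genes placed in the group of neuronal proteins were Ric3, Snap91 and Gap43. Each gene was put in 1 group only, and other genes with neuronal roles, such as Necab1, Gng3 and C1ql3, are counted in other groups. Ric3, a chaperone of nicotinic acetylcholine receptors, was in KO cells at 0.942 and 1.62 CPM at day 0, 71.6 and 164 CPM at day 2, and 88.1 and 115 CPM at day 10. Ric3 in WT cells was at 0.378 and 0.571 CPM at day 0, 5.13 and 10.6 CPM at day 2, and 15.9 and 16.2 CPM at day 10. Ric3 was called in both comparisons, higher in KO than in WT cells at day 2 (log2 fold change 3.97, SE 0.44, FDR 0.000929) and higher in WT day 2 than in WT day 0 cells (log2 fold change 4.00, SE 0.51, FDR 0.00352). Its WT level at day 10 was not below that of day 2. Snap91, a clathrin assembly protein of synapses, was at 69.6 and 62.4 CPM in KO and 33.2 and 31.7 CPM in WT cells at day 2 (log2 fold change 1.10, SE 0.19, FDR 0.00747). Gap43, a growth cone protein, was at 7.34 and 4.50 CPM in KO and 2.90 and 2.51 CPM in WT cells at day 2 (log2 fold change 1.21, SE 0.38, FDR 0.0801, not passed), and its rise in WT cells since day 0 passed (log2 fold change 3.41, SE 0.48, FDR 0.00517).

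None of the 6 genes of the cytoskeleton and metabolism passed the test between the genotypes at day 2, and 3 (Ndufa4l2, Adhfe1 and Gda) rose in WT cells by then. Ndufa4l2 was in KO cells at 6.33 and 8.19 CPM at day 0, 55.9 and 68.2 CPM at day 2, and 153 and 126 CPM at day 10. Ndufa4l2 in WT cells was at 11.96 and 10.1 CPM at day 0, 51.1 and 49.5 CPM at day 2, and 23.6 and 25.5 CPM at day 10. The WT rise to day 2 passed the test (log2 fold change 2.15, SE 0.20, FDR 0.00116), and at day 10 the KO libraries were above and the WT libraries below their day 2 levels. Adhfe1, a mitochondrial transhydrogenase, was at 28.8 and 29.6 CPM in KO and 17.6 and 19.7 CPM in WT cells at day 2, ranges that do not overlap although the test was not passed (log2 fold change 0.72, SE 0.20, FDR 0.0508). Gda, guanine deaminase, overlapped between the genotypes at day 2, with 3.26 and 3.43 CPM in KO and 3.14 and 3.48 CPM in WT cells, and reached 17.2 and 16.4 CPM in KO cells at day 10. Aoah, an enzyme that deacylates bacterial lipopolysaccharide, and Tppp3, a tubulin-binding protein, were already at 71.5 and 53.03 CPM and 25.8 and 18.8 CPM in WT cells at day 0, before treatment, and passed neither test; nor did the myosin light chain gene Myl6b.

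Wdfy4, which acts in cross-presentation by dendritic cells, had in KO cells 0.628 and 0.596 CPM at day 0, 3.69 and 3.22 CPM at day 2, and 17.6 and 19.7 CPM at day 10. Wdfy4 in WT cells was at 22.2 and 23.1 CPM at day 0, 21.6 and 18.7 CPM at day 2, and 3.31 and 4.01 CPM at day 10. It had the lowest FDR of the 48 at day 2 and the sign was negative (log2 fold change -2.47, SE 0.22, FDR 0.000407). WT cells held at day 0 and day 2 about the level that KO cells reached at day 10, so that the day 10 contrast of Wdfy4 rests on a WT level below its own day 0 as well as on a KO level above its own. It was the one gene of the 48 with a WT day 0 mean above its KO day 10 mean, and 17 of the 48 had a WT day 0 mean of at least 5 CPM. At day 2 the WT mean was above the KO day 10 mean for 3 genes (Wdfy4, Btla and Olig3) and at least 5 CPM for 31. The transcript 1700084C01Rik was at 2.49 and 3.42 CPM in KO and 7.07 and 9.36 CPM in WT cells at day 2 (log2 fold change -1.40, SE 0.35, FDR 0.0372), and Wdr64, a WD repeat protein, at 6.33 and 7.12 CPM in KO and 2.52 and 2.08 CPM in WT cells (log2 fold change 1.61, SE 0.34, FDR 0.0164). Elapor2, listed as 9330182L06Rik, passed neither test.

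The KO course is a description, since the choice required low KO day 0 and high KO day 10 levels, and nothing is read from its counts or shares. Both KO day 2 libraries were above both KO day 0 libraries for 47 of the 48, against 17.6% of all genes. The lower KO day 2 library was at least 3 times the higher KO day 0 library (1 CPM added to each) for 30 genes, against 0.74% of all genes. On the log2 scale the median gene had made 78.5% of its KO day 0 to day 10 gain by day 2, and 13 genes were past their day 10 level. From day 2 to day 10, KO levels were higher without overlap at day 10 for 31 genes, against 25.9% of all genes, and lower without overlap for 6, against 16.5%. Those 6 were Necab1, Pak3, Snap91, Adhfe1, Il10 and Tshr.

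Libraries A and B differed with transcript length at days 0 and 2. Across all tested genes, the log2 ratio of B to A correlated with log2 length at 0.466 (Pearson) in KO day 2 and 0.447 in WT day 2 cells, and at -0.037 in KO day 10 cells; over the 48 genes it was 0.389, 0.341 and -0.127. These are correlations across genes of a library pair, and genes are not replicates. The median log2 ratio of B to A at KO day 2 was 0.34 for the 24 longer of the 48 genes and -0.04 for the 24 shorter. The largest ratios were 3.87 for Fras1, 3.68 for Pde3a and 3.25 for Masp1. Both genotypes shared the letters, and the higher calls at day 2 were 10 longer and 8 shorter genes. What part of these values moves with length was not tested.

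**Figure D4:**
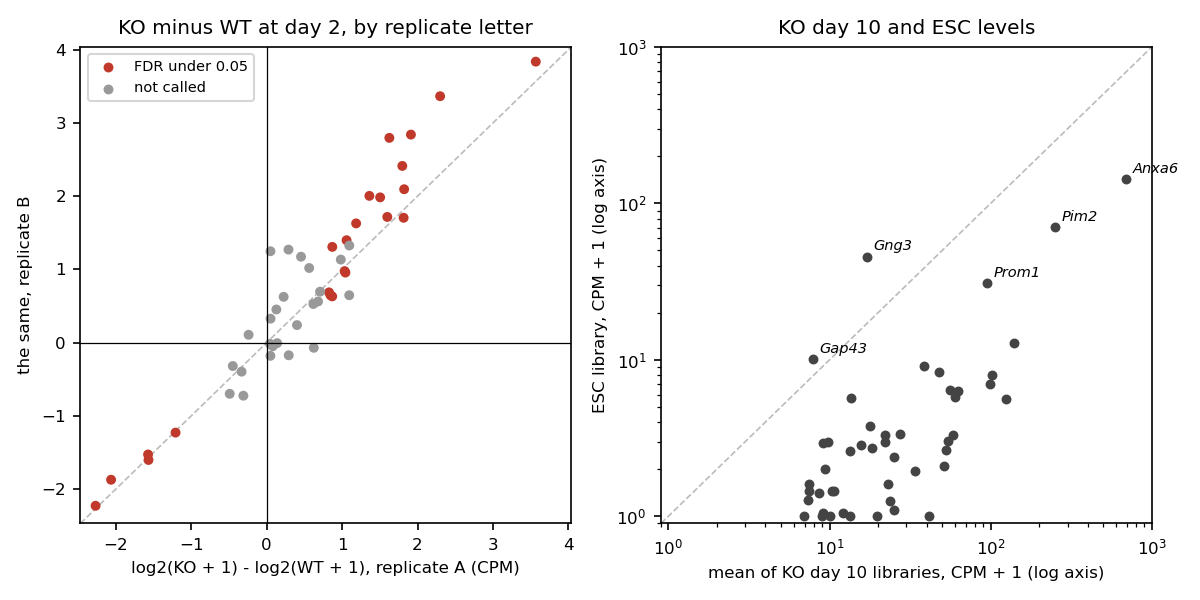
Left, the difference of KO from WT at day 2 in log2(CPM + 1) for each of the 48 genes in library A (x axis) and B (y axis), red for an FDR under 0.05. All 18 higher and 5 lower genes have the same sign in both, which is no separate check because the calls used these libraries. Right, CPM + 1 on log axes in the ESC library (y axis) against the mean of the KO day 10 libraries (x axis); Gng3 and Gap43 lie above the dashed line of equal level.

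In ESCs the genes were mostly low. The median was 1.79 CPM, 19 of the 48 were under 1 CPM, and 12 were at 5 CPM or more. No read was counted for Lhfpl1, Wdfy4, Cd200r3, Esr1, Olig3 and Btla, for which an exact 95% Poisson interval reaches 0.184 CPM and covers counting error only. The highest were Anxa6 at 142 CPM, Pim2 at 69.9, Gng3 at 44.8 and Prom1 at 29.9 CPM. The sum over the 48 genes was 393 CPM in ESCs, near that of WT day 10 cells (446 and 410.2 CPM) and below that of KO day 10 cells. Low WT and high KO day 10 levels were required by the choice, and Anxa6 alone gave 197 and 174 CPM of the WT sums. Single genes differed in both directions. In WT day 10 cells Gng3 was at 4.61 and 4.43 CPM, below its ESC level. Aoah was at 19.0 and 20.9 CPM there, against 4.58 CPM in ESCs. With 1 ESC library, no test was made.

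Lists of marker genes of other cell types and states gave context for the 48, here also between KO and WT at day 10, a contrast that the choice of the 48 used. At day 10, 12.4% of all genes tested were higher in KO than in WT cells and 19.9% lower. Of 14 neuronal marker genes tested, Gap43 is among the 48 and was chosen on this contrast; of the others, Syt1 and Ncam1 were higher and 5 were lower in KO cells at day 10. At day 2, 2 were higher and none lower. The neuronal markers summed to 175 to 183 CPM in KO and 179 to 227 CPM in WT cells at day 10, where Snap25 had no read in either KO library and Rbfox3 was at 0.0625 and 0.121 CPM in KO cells. Neural progenitor genes were higher for 5 and lower for 1 of 17 at day 10, and higher for 3 and lower for none at day 2.

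Blood and macrophage markers were checked because Il10, Btla, Cd200r3, Aoah and Wdfy4 are known from blood cells. Of 11 such markers in the files, 6 (Ptprc, Lyz2, Tyrobp, Fcer1g, Aif1 and Cd52) had no read in either KO day 10 library. All 11 summed to 22.2 to 23.0 CPM in KO cells and 95.5 to 106 CPM in WT cells at day 10, most of it Laptm5 and Cd68; none of the 5 tested was higher in KO cells, and 3 were lower. Laptm5 was at 11.4 and 9.87 CPM and Cd68 at 7.37 and 10.5 CPM in KO cells at day 10, and Ptprc had no read in the WT day 10 libraries either. The part of such cells in the levels of the 5 genes was not tested.

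Markers of the naive pluripotent state were mostly lower in KO cells. At day 10, 12 of 17 were lower in KO than in WT cells and none was higher; at day 2, 10 were lower and none higher. Nanog, a central naive factor, averaged 31.9 CPM in KO and 314 CPM in WT cells at day 10, and 5.37 CPM in KO and 16.3 CPM in WT cells at day 2. Of 14 epithelial genes, 11 were lower and none higher in KO cells at day 10, and 9 lower and none higher at day 2; Cdh1, the epithelial cadherin, averaged 94.8 CPM in KO and 636 CPM in WT cells at day 10. Wnt target genes, which GSK3 inhibition is known to raise, were mixed, with 4 higher and 6 lower of 16 at day 10 and 1 higher and 5 lower at day 2. Germline and interferon-response genes were lower in KO cells at day 10 for 12 of 12 and 12 of 14.

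The 48 genes lay on many chromosomes, with 7 on chromosome 5, 6 on chromosome 1 and 5 on chromosome 10. The closest were Cd200r3 and Btla on chromosome 16, then Fras1 and Antxr2, 6 genes apart on chromosome 5, and Pak3 and Lhfpl1, 8 genes apart on the X chromosome. Fras1 was higher in KO than in WT cells at day 2 while Antxr2 was not called, and Pak3 was higher while Lhfpl1 was not called (log2 fold change 1.40, SE 0.45, FDR 0.0940).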

How the data were processed

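RNA of 12 pre-iPSC libraries and 1 ESC library was sequenced single-end. Bowtie2, RSEM and the mouse build mm9 are named in the submitters' processing notes, without versions. The values used are the expected counts deposited by the authors (35.0 to 43.8% of values per library lie more than 0.005 from a whole number) and the deposited TPM, which the authors scaled by transcript length. The authors' FPKM values were not used.

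CPM is the expected count over the library total. After rounding, these values entered edgeR 4.0.16 (R 4.3.3, quasi-likelihood test) in 1 fit over the 6 groups (TMM factors, filterByExpr, 14324 genes, Benjamini-Hochberg over all of them, common biological coefficient of variation 0.266, 6 residual degrees of freedom). DESeq2 1.42.0, other factors, filters, library sets and a replicate block were alternatives. The fit was also run on simulated counts that held no difference between letters A and B, so that run cannot speak to such differences in these data. ESC intervals are exact Poisson intervals and cover counting error only.

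The 48 genes, the marker lists and the tests were chosen with earlier results of these data known, and the role groups after the genes were seen. The text names genes by ratio, level, FDR, ESC level, neighbourhood and known role; others are counted, and 1 gene outside the choice is not reported here. All 48 were matched to a RefSeq gene by their transcript identifiers or, where none matched, by symbol.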

Additional observations from a re-analysis of the deposited data

Results flagged for a closer look

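In 2 of the 48 genes the ESC library, which entered no comparison, lay above every pre-iPSC library. Gng3, a G protein gamma subunit of neurons, was at 44.8 CPM in ESCs (exact 95% Poisson interval 41.9 to 47.8 CPM, counting error only), against at most 16.1 CPM in any pre-iPSC library. Gap43, a growth cone protein, was at 9.11 CPM in ESCs (7.84 to 10.5 CPM), against at most 7.94 CPM. The Gap43 interval includes 7.94 CPM, so the difference is within counting error. The ESC value comes from 1 library, so its spread between cultures is unknown.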

How the results depend on the processing

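For KO against WT at day 2, 18 of the 48 genes were higher and 5 lower. The higher genes numbered 17 with RLE factors, 15 with no filter on low counts, 22 in DESeq2 and 23 with a replicate block over all 12 libraries; they moved to 30 with a replicate block on the day 0 and day 2 libraries, to 10 with those 8 libraries and no block, and to 0 with only the 4 libraries compared, where the lower genes were 0 as well. Calls over all genes of a fit, both directions, were 1498 of 14324 in the reported fit, 2293 and 5366 with those blocks and 2156 in DESeq2. They were 887 with the 8 libraries and 79 with the 4, so the members' counts moved along with those of all genes. Leaving out 1 library gave 7 to 17 higher and 3 to 5 lower genes. At an unadjusted p under 0.05, 25 genes were higher and 5 lower, but no count over all genes was made at that limit, so nothing is read from these numbers. For WT day 2 against day 0, the 20 higher genes became 40 with the day 0 and day 2 block, 12 with those libraries and no block, 6 with the 4 libraries compared, and 8 to 21 with 1 library left out; DESeq2 gave 27 and the block over 12 libraries 26. Over all genes the calls were 759 in the reported fit and 4518, 283 and 119 in the first 3 of these. They were 1434 in DESeq2 and 1433 with the block over 12 libraries. That block kept all reported calls and added Lhfpl1 (FDR 0.0175), Prom1 (0.0315), Gap43 (0.0221), Adhfe1 (0.0214) and Tshr (0.0329) as higher in KO than in WT at day 2, and Plcb1, Fras1, Necab1, Olig3, Tshr and Gng3 (FDR 0.0216 to 0.0394) as higher in WT at day 2 than at day 0. In each of these fits 0 of the 48 genes were lower in WT at day 2 than in WT at day 0. No called gene changed sign under any alternative. Where a group kept 1 library, it was assumed to vary like the others. The letters A and B share no stated origin: deviations of same-letter libraries correlated at 0.741 to 0.812 among day 0 and day 2 groups and at -0.061 to 0.049 in pairs with a day 10 group, so the block is a hint from the data, not the design. The choice itself gave 107 genes at a ratio of 2, 20 at a ratio of 5, 33 at a minimum of 10 CPM, and 51 to 64 with 1 library left out. With 2 libraries a group, small differences were not detectable.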
